A study of Mus musculus with 23 samples.

Results

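Non-tumour lung of 18-month-old Rarres1 knockout (KO) mice was compared with wild-type (WT) lung of the same age across all genes. The comparison used 8 of the 23 libraries of the series, chosen by their column names in the deposited count table: WT lungs 1, 2 and 3 and KO lungs 1, 2, 3, 6 and 7. The rest of the series held WT and KO lungs at embryonic day 19.5 (E19.5) and at 10 months, with 3 libraries in each group, and 3 lung tumours of 18-month KO mice. The labels give a C57BL/6 background, male sex, no treatment and housing behind a barrier for all 8 mice, and a non-tumour pathology for the 5 KO lungs. KO lungs 1, 3 and 6 carry the animal codes of the 3 tumours, and KO lungs 2 and 7 do not. How the Rarres1 allele was made is not given in the sources used here. Nor is the hour at which the lungs were taken, so genotype and an hour that differed between the groups cannot be told apart.

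Rarres1 (retinoic acid receptor responder 1) encodes a membrane protein that is induced by retinoids and is related to latexin, an inhibitor of carboxypeptidases. Most of the genes that passed the test belong to the circadian clock, a feedback loop that runs in most cell types of the lung. In this loop BMAL1 (the product of Arntl) pairs with CLOCK or NPAS2 and switches on the Per, Cry, Nr1d1, Nr1d2 and Dbp genes through E-boxes in their promoters. PER and CRY proteins then inhibit the pair, and REV-ERB proteins (from Nr1d1 and Nr1d2) repress Arntl and Npas2, so that activator and repressor genes peak at opposite times of day.

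The libraries held 27.3 to 29.3 M counts in the WT lungs and 23.7 to 46.6 M in the KO lungs, where M stands for 1000000. Markers of lung epithelium were high in all 8: Sftpc, the surfactant protein of alveolar type 2 cells, was at 9426 to 17329 CPM (counts for each 1000000 of the total), Ager of type 1 cells at 1822 to 2622 CPM, and Scgb1a1 of club cells at 23855 to 57296 CPM. The library labelled KO lung 7 went against its sex label. It held 21491 reads of Xist, the RNA of the inactive X chromosome, and 0 reads of the Y-linked genes Ddx3y, Kdm5d, Uty and Eif2s3y. The other 7 lungs held 2 to 13 reads of Xist and 3285 to 6009 reads of the 4 Y-linked genes together. KO lung 6 stood apart in other genes. Of 14312 genes, 78 were at least 2-fold below and 14 at least 2-fold above all other 7 lungs, against 0 to 10 and 0 to 18 in each of the other lungs. Rn45s, the ribosomal RNA precursor, was at 13053 CPM in KO lung 6 and at 920 to 4153 CPM elsewhere. Cyp1a1, an enzyme induced through the aryl hydrocarbon receptor, was at 80.4 CPM there and at most 4.78 CPM in the other 7. Reads of the near-identical adult beta globin genes Hbb-bs and Hbb-bt stood in a ratio of 3.54 in KO lung 6 and 2.53 in KO lung 7, and of 0.492 to 0.667 in the other 6 lungs. Hba-a1 took 53.6% to 80.1% of the Hba-a1 and Hba-a2 reads in those 6 lungs, 5.85% in KO lung 7 and close to none in KO lung 6. Results are therefore given below with and without KO lungs 6 and 7 where these change a call.

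**Figure D1:**
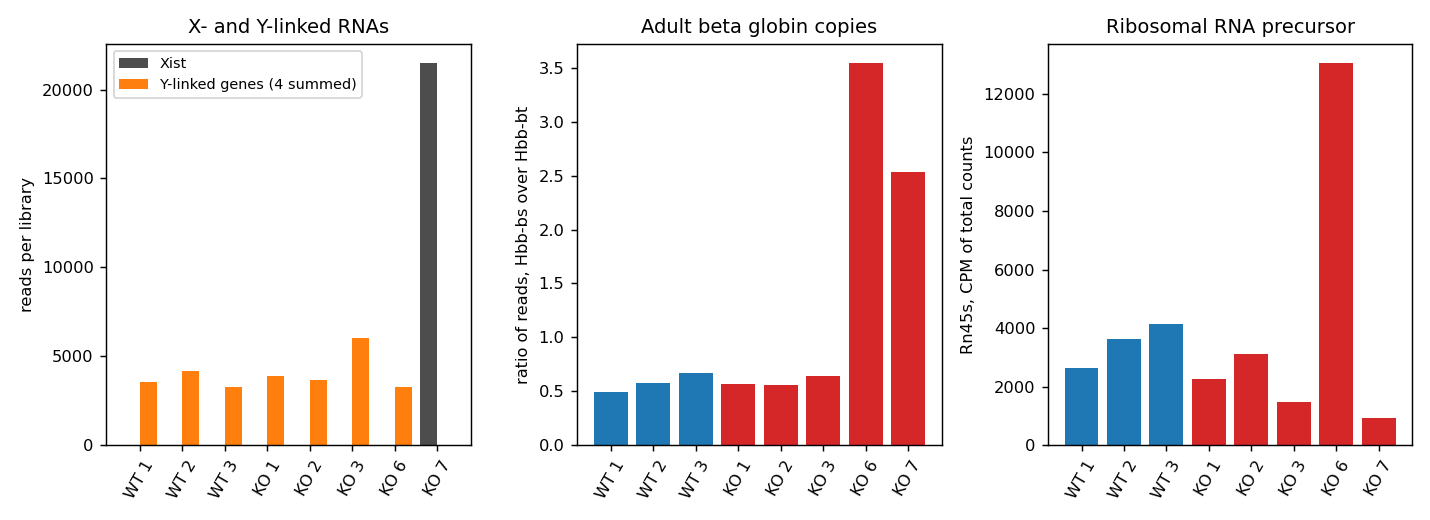
Bars show, for each of the 8 lungs at 18 months (WT blue and KO red in the middle and right panels), the reads of Xist and of 4 Y-linked genes summed, the ratio of Hbb-bs to Hbb-bt reads, and Rn45s in CPM of total counts. KO lung 7 has 21491 Xist reads and 0 Y-linked reads, KO lungs 6 and 7 have globin ratios of 3.54 and 2.53, and KO lung 6 has 13053 CPM of Rn45s.

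Rarres1, whose reads test the genotype labels, occupies chr3:67478886-67515523 (GRCm38.p6, minus strand). The 3 WT lungs held 61, 64 and 62 reads, and each of the 5 KO lungs held 0. Pooled over the group, 187 WT reads against a floor of 3 reads in the KO lungs put Rarres1 at least 109-fold lower in KO lung, where the floor covers counting error only. The authors' FPKM values in the WT lungs were 1.71, 1.92 and 1.79.

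Across 15463 genes tested, 12 were called by edgeR's quasi-likelihood test at a Benjamini-Hochberg adjusted p under 0.05, which is 0.0776% of the genes. Of these, 7 were higher in KO lung (0.0453%) and 5 were lower (0.0323%). Beside Rarres1 they comprised 7 clock genes (Arntl, Npas2, Nr1d1, Nr1d2, Bhlhe41, Dbp and Hlf) and Tspan4, Rasl11a, Zfp346 and 5430416O09Rik. In all 12 the 5 KO lungs lay wholly to one side of the 3 WT lungs. The same non-overlap was found in 1065 of the genes tested (6.89%), 487 of them higher in KO lung (3.15%) and 578 lower (3.74%). The median log2 fold change over all genes was -0.00, and 49.5% of genes lay above 0.

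**Figure D2:**
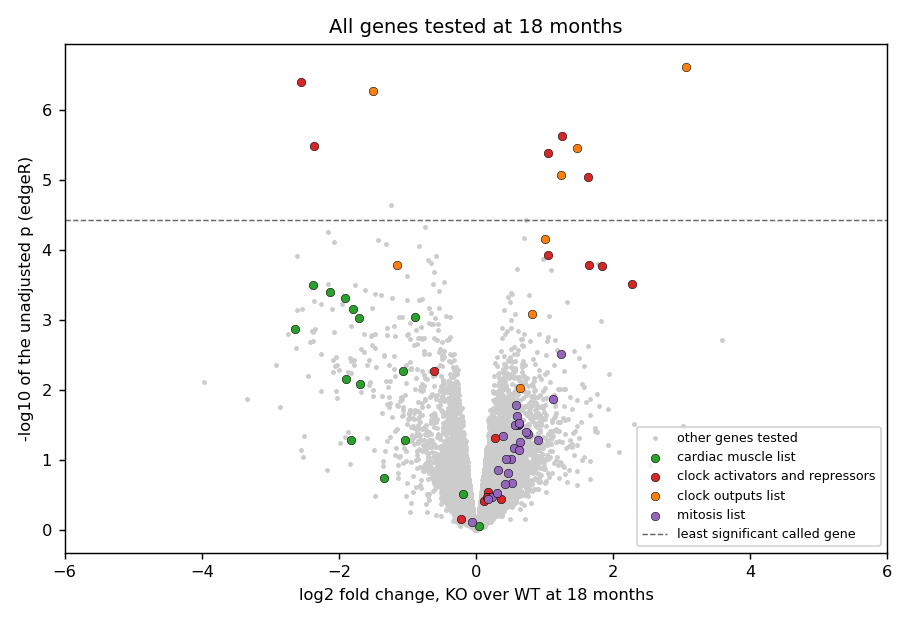
Each point is a gene, with the log2 fold change of KO over WT lung at 18 months on the x axis and the -log10 of the unadjusted edgeR p on the y axis; Rarres1, which has 0 reads in KO lung, and 2 genes beyond the axis are not drawn. The points above the dashed line are the called genes, and the cardiac muscle list lies mostly below -1 on the x axis and under the line.

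The activators of the clock were lower in KO lung. Arntl (chr7:113178471-113314126) was at 28.0, 40.1 and 31.2 CPM in the WT lungs and at 5.44, 6.10, 8.04, 3.56 and 4.68 CPM in KO lungs 1, 2, 3, 6 and 7, where CPM from here on are scaled by TMM. The highest KO lung was well under the lowest WT lung, and the log2 fold change was -2.56 ± 0.22 (SE; edgeR adjusted p = 0.00274). Npas2 (chr1:39193702-39363240), the partner that can replace CLOCK, was at 11.2, 17.6 and 13.2 CPM in WT lung and at 2.65, 2.66, 3.10, 1.41 and 3.73 CPM in KO lung. Its groups did not overlap either, with a log2 fold change of -2.36 ± 0.26 (edgeR adjusted p = 0.00763). KO lung 6 had the lowest level of both genes. Clock, the main partner of BMAL1, was at 100 to 115 CPM in WT lung and at 49.1 to 88.8 CPM in KO lung, which did not overlap. Its log2 fold change of -0.61 ± 0.17 did not pass the test (edgeR adjusted p = 0.348). Of the 6 activators tested, 2 were called lower and none higher.

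The repressors stood on the other side. Nr1d1 (chr11:98767932-98775377, minus strand), which encodes REV-ERB alpha, was at 146, 140 and 167 CPM in WT lung and at 286, 264, 334, 340 and 344 CPM in KO lung. Nr1d2 (chr14:18204056-18239106, minus strand), for REV-ERB beta, was at 87.0, 63.5 and 73.3 CPM against 171, 162, 158, 197 and 205 CPM. Both rose about equally, by 1.05 ± 0.12 and 1.26 ± 0.13 on the log2 scale (edgeR adjusted p = 0.00802 and 0.00719). Bhlhe41 (chr6:145858243-145865420, minus strand), whose product DEC2 competes for E-boxes, was at 15.9, 18.8 and 17.9 CPM in WT lung and at 67.1, 38.4, 43.4, 68.8 and 55.9 CPM in KO lung. It rose by 1.64 ± 0.20 (edgeR adjusted p = 0.0141), and KO lungs 1 and 6 were the highest.

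The rest of the repressor arm was not called. Per2, a core inhibitor of the BMAL1 pair, was at 20.1 to 25.9 CPM in WT lung and at 54.5 to 66.5 CPM in 4 KO lungs, with KO lung 7 at 128 CPM. Its log2 fold change was 1.64 ± 0.28 (edgeR adjusted p = 0.0876). Without KO lung 7 it was 1.35 and Per2 was called (adjusted p = 0.0130). Per3 was at 25.0 to 30.5 CPM in WT lung and at 77.8, 73.5, 60.1, 128 and 165 CPM in KO lung (1.84 ± 0.32, adjusted p = 0.0876), and Ciart, a further inhibitor of the pair, at 2.24 to 3.84 CPM against 12.6, 9.47, 8.30, 26.5 and 22.5 CPM (2.28 ± 0.43, adjusted p = 0.124). KO lungs 6 and 7 were the highest for both genes, and without those lungs both were called, at adjusted p = 0.00946 and 0.0495. Bhlhe40, which encodes DEC1, was at 44.6 to 52.9 CPM against 70.5 to 123 CPM (1.05 ± 0.17, adjusted p = 0.0836). Per1 overlapped between the groups, at 48.3 to 184 CPM in WT lung and 90.1 to 200 CPM in KO lung. All 10 repressors had a log2 fold change above 0, with a median of 1.16. Of these, 3 were called, 8 did not overlap between the groups, and 7 were called higher by DESeq2. Over all genes DESeq2 called 154 (0.996%), of which 62 were higher in KO lung (0.401%) and 92 lower (0.595%).

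Among the called genes other than Rarres1, the largest change was in an output factor of the clock. Dbp (chr7:45705100-45710203), a transcription factor of the PAR bZIP family that BMAL1 drives directly, was at 19.7, 19.8 and 29.5 CPM in WT lung and at 201, 154, 140, 277 and 185 CPM in KO lung. That is an 8.32-fold rise (log2 fold change 3.06 ± 0.25, edgeR adjusted p = 0.00274), and KO lung 6 was the highest. Hlf (chr11:90336535-90390917, minus strand), of the same family, was at 20.4, 14.0 and 19.6 CPM against 44.1, 45.7, 44.6, 54.7 and 62.1 CPM, and rose by 1.48 ± 0.16 (adjusted p = 0.00763). The following genes of the output list were named after their values were seen. Tef, a further PAR bZIP factor, was at 181 to 236 CPM in WT lung and 326 to 533 CPM in KO lung (1.01 ± 0.16, adjusted p = 0.0659). Nfil3, a repressor that competes with these factors, lay the other way, at 10.2 to 13.8 CPM in WT lung and 3.19 to 5.77 CPM in KO lung (-1.16 ± 0.20, adjusted p = 0.0876). KO lung 6 had the lowest level, and Nfil3 was called without it (-1.03, edgeR adjusted p = 0.0458) and without KO lungs 6 and 7 (adjusted p = 0.0439). Wee1 and Usp2, which BMAL1 also drives, had log2 fold changes of 0.81 ± 0.17 and 0.64 ± 0.20 and did not overlap between the groups (adjusted p = 0.185 and 0.408). Over the 22 genes of the activator, repressor and output lists, leaving out Tspan4 and Rasl11a, 5 were called higher and 2 lower. Of the 22 genes, 13 lay wholly higher and 4 wholly lower, against 3.15% and 3.74% of all genes, and 5 overlapped.

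**Figure D3:**
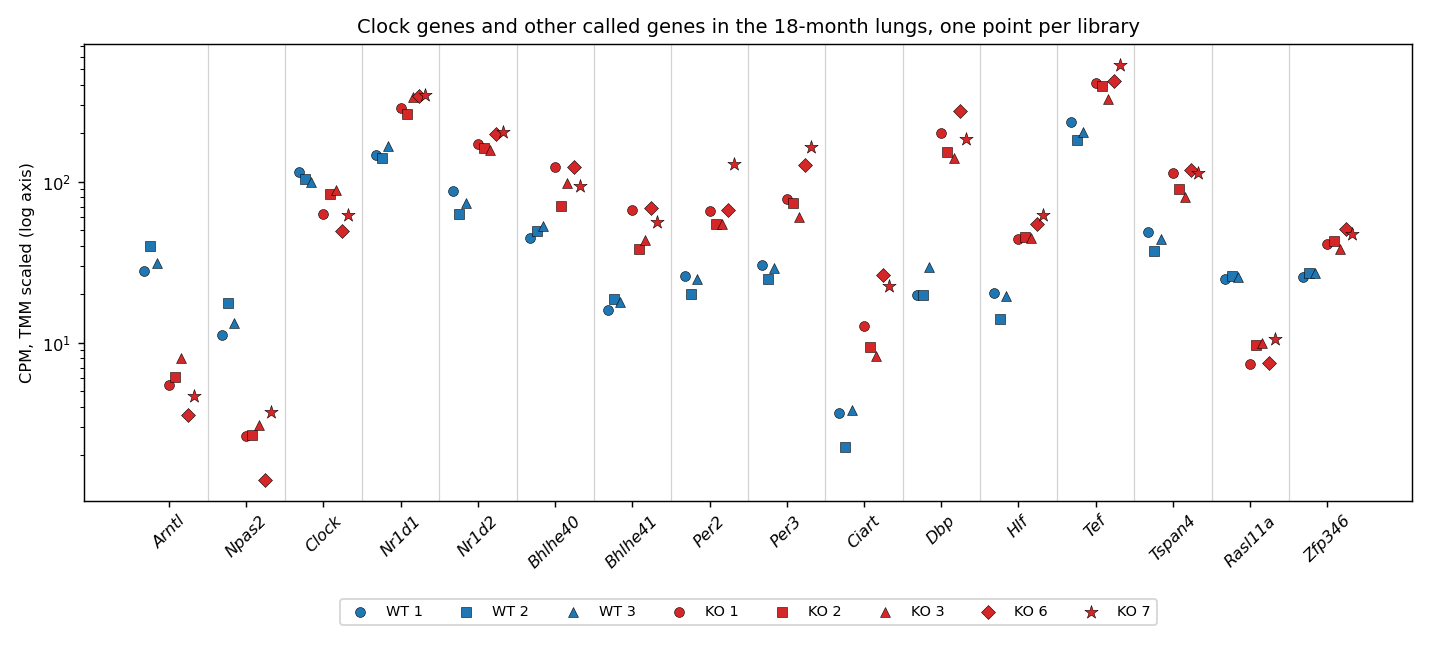
Points are TMM-scaled CPM on a log axis for each of 3 WT lungs (blue) and 5 KO lungs (red), with a marker shape for each lung number. Arntl, Npas2, Clock and Rasl11a are lower in every KO lung than in every WT lung, and the other 12 genes shown are higher in every KO lung; KO lung 7 is highest for Per2 at 128 CPM.

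The promoters of these genes were searched because several of the called genes are known targets of BMAL1. The windows were the 250 bases before each RefSeq transcript start in GRCm38.p6, and both strands were searched for the E-box CACGTG, its variant CACGTT, the D-box TTATGTAA or TTACGTAA that PAR bZIP factors bind, and the single site TAGGTCA or TGGGTCA of REV-ERB proteins. Of the 12 called genes, 11 had a window. The E-box was in 2 of them (Bhlhe41 and Tspan4) and the variant in 1 (Nr1d1), against 6.86% and 4.50% of all 27025 genes with a window. The D-box and the REV-ERB site were in none of the 11, against 1.10% and 6.15% of all genes. In the clock lists 6 of 20 genes with a window held an E-box. The 20 include Tspan4 and Rasl11a, put in these lists because earlier results showed them, and Tspan4 is among the 6. Ciart held 3 E-boxes, and Per3 held the D-box at 2 places. A selection is shown, from 3 called genes and from Ciart and Per3, which hold repeated matches; the motif is in capitals, each 5′ to 3′ on the strand of the gene.
Bhlhe41, chr6:145865556-145865585, minus strand, E-box from 153 bases before the start: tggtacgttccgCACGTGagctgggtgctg
Tspan4, chr7:141476317-141476346, plus strand, E-box from 51 bases before an internal start: cccccatggagcCACGTGcagagccacgag
Nr1d1, chr11:98775388-98775417, minus strand, E-box variant on the opposite strand from 28 bases before the start: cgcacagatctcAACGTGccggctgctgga
Ciart, chr3:95882327-95882356, minus strand, E-box from 116 bases before the start: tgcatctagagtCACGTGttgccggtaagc
Ciart, chr3:95882269-95882298, minus strand, E-box from 58 bases before the start: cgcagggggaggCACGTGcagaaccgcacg
Per3, chr4:151044852-151044881, minus strand, D-box from 205 bases before the start: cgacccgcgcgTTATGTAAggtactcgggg
Per3, chr4:151044805-151044834, minus strand, D-box from 158 bases before the start: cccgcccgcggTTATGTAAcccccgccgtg
A match says only that these letters stand in the window, and windows without one say nothing about binding elsewhere in the gene.

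The remaining called genes have no settled place in the core clock. Tspan4 (chr7:141475236-141493427), a tetraspanin of cell membranes, was at 49.0, 37.3 and 44.3 CPM in WT lung and at 113, 90.3, 80.2, 118 and 113 CPM in KO lung. It rose by 1.24 ± 0.15 (edgeR adjusted p = 0.0141). Rasl11a (chr5:146845071-146847726), a small Ras-like GTPase, was nearly constant at 24.9, 26.0 and 25.5 CPM in WT lung and was at 7.35, 9.62, 9.94, 7.49 and 10.5 CPM in KO lung. It fell by 1.50 ± 0.14 on the log2 scale (adjusted p = 0.00274). Zfp346 (chr13:55105271-55135071), a zinc finger protein that binds double-stranded RNA, was at 25.6, 27.0 and 27.2 CPM against 41.3, 42.6, 38.3, 51.0 and 47.1 CPM. Its rise of 0.73 ± 0.10 was the smallest among the called genes (adjusted p = 0.0476). The RIKEN gene 5430416O09Rik was at 9.64, 11.7 and 10.5 CPM in WT lung and at 5.97, 3.95, 3.89, 4.05 and 4.68 CPM in KO lung (-1.24 ± 0.17, adjusted p = 0.0321).

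The count of calls fell when a WT lung was left out and grew without KO lung 7. Dbp, Arntl and Rasl11a were called whichever of the 8 lungs was left out. Only these 3 were called without WT lung 2 or without WT lung 3, and 6 genes were called without WT lung 1. Without KO lung 7 the count was 26 (0.169%), of which 10 were among the 12, and without KO lungs 6 and 7 it was 42 (0.274%), of which 11 were. Zfp346 was at adjusted p = 0.0574 without KO lung 7, and 5430416O09Rik at 0.0556 without KO lung 7 and 0.0730 without KO lung 6. With 1 of the 8 lungs left out in turn, Zfp346 was called in 2 fits and 5430416O09Rik in 1. Their edgeR adjusted p values in these fits reached 0.306 and 0.286. The genes gained without KO lung 7 included Per2 and Tef of the clock and, named after their values were seen, the muscle genes Ttn, Ldb3, Casq2 and Tbx20.

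Heart muscle genes were the largest group at lower level in KO lung that missed the edgeR threshold. In mice a sleeve of cardiac muscle runs along the pulmonary veins into the lung, and pieces of lung can carry it. Of 15 cardiac muscle genes tested, none was called by edgeR and 6 were called lower by DESeq2, against 0.595% of all genes. In 14 the log2 fold change was below 0, with a median of -1.70. Of the 15 genes 11 lay wholly lower in KO lung, against 3.74% of all genes. Myl7, the atrial regulatory light chain of myosin, was at 47.8, 57.6 and 41.8 CPM in WT lung and at 12.5, 11.9, 3.41, 3.72 and 15.9 CPM in KO lung (-2.38 ± 0.44, edgeR adjusted p = 0.124). Myl4, the atrial essential light chain, was at 58.1, 67.9 and 53.4 CPM against 18.6, 15.3, 3.98, 8.98 and 21.8 CPM (-2.13 ± 0.41, adjusted p = 0.143). KO lung 3 had the lowest level of both and KO lung 7 the highest among the KO lungs. Tnnt2 and Tnnc1, troponins of cardiac muscle, had log2 fold changes of -1.91 ± 0.38 and -1.79 ± 0.37. The mean level of the list, in log2(CPM + 1), was 4.55 to 4.75 in WT lung and 2.36 to 4.02 in KO lung. Fewer cells of a type and less RNA per cell cannot be told apart in bulk RNA.

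The naming rule also took the genes called by DESeq2 alone with the largest differences, and those at lower level in KO lung were again mostly genes of striated muscle. Kcnj3, a potassium channel subunit of the atrium, was at 2.90 to 4.63 CPM in WT lung and 0.0656 to 1.10 CPM in KO lung, and Smpx, a small muscle protein, at 2.74 to 3.60 CPM against 0.0414 to 1.10 CPM. Tbx20, a heart transcription factor, was at 2.10 to 4.00 CPM against 0.175 to 0.460 CPM in 4 KO lungs and 1.49 CPM in KO lung 7. Without KO lung 7 its log2 fold change moved from -2.37 to -3.13 and it was called (edgeR adjusted p = 0.0272). Casq2, the calcium store protein of cardiac muscle, moved from -2.25 to -2.76 in the same way (adjusted p = 0.0296). Xirp2, Csrp3 and Hrc, further proteins of the muscle sarcomere and calcium store, had log2 fold changes of -2.61 ± 0.44, -2.36 ± 0.47 and -2.35 ± 0.54. Spon2, a secreted matrix protein, was in this set as well, at 27.9, 45.2 and 39.7 CPM in WT lung and 5.59, 6.73, 15.1, 9.35 and 4.87 CPM in KO lung (-2.16 ± 0.33, edgeR adjusted p = 0.0615). The part of heart muscle in the other differences was not tested apart from 1 fit with the level of the cardiac list as a covariate. That level separates the groups by itself, and the fit called 0 genes, with 648 at an unadjusted p under 0.05. In it the log2 fold changes of Dbp and Arntl were 2.93 and -2.92, and their edgeR adjusted p values were 0.268 and 0.322.

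At higher level in KO lung, the genes called by DESeq2 alone were mixed. Beside Ciart, Per2 and Per3 they included Rasd2, a Ras-like GTPase, at 3.49 to 3.94 CPM in WT lung and 15.1, 9.74, 7.63, 20.6 and 11.3 CPM in KO lung (1.79 ± 0.31, edgeR adjusted p = 0.0876). Smpdl3b, a phosphodiesterase of the cell surface, was at 4.34 to 5.55 CPM against 5.89 to 14.2 CPM, and Tex11, a gene of meiosis, at 1.51 to 3.00 CPM against 4.16 to 6.99 CPM. Treml4, a receptor of monocytes, was at 6.74 to 7.42 CPM against 11.5 to 13.7 CPM in 4 KO lungs and 29.0 CPM in KO lung 3. Xlr4a belongs to a family of near-identical X-linked genes, so its reads may be split among copies, and its KO range of 1.38 to 3.10 CPM included 2.85 and 3.10 CPM in KO lungs 6 and 7. Tnfrsf4 (OX40, a costimulatory receptor of T cells) and Birc5 (survivin, a gene of dividing cells) had log2 fold changes of 1.51 ± 0.40 and 1.25 ± 0.32 (edgeR adjusted p = 0.309 and 0.297).

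Genes of T, NK, B and plasma cells lay mostly above 0, without a single edgeR call. All 19 T and NK cell genes tested had a log2 fold change above 0, with a median of 0.57 (0.37 without WT lung 1), and none lay wholly higher in KO lung. Cd3e, a chain of the T cell receptor complex, was at 3.78, 4.52 and 4.34 CPM in WT lung and at 9.37, 3.48, 7.93, 10.5 and 7.39 CPM in KO lung (0.88 ± 0.30, edgeR adjusted p = 0.452). KO lung 2 alone was not above the WT range. It was the lowest KO lung for Cd4 as well, which was at 4.48 to 5.61 CPM in WT lung, 3.68 CPM in KO lung 2 and 9.15 to 15.7 CPM in the other KO lungs. Foxp3, the factor of regulatory T cells, was at 0.604 to 0.777 CPM against 0.313 CPM in KO lung 2 and 1.09 to 2.55 CPM in the rest. All 14 genes of checkpoint and costimulatory receptors and their ligands were above 0 as well, with a median of 0.91. Wholly higher were 6 of them, against 3.15% of all genes. These included Havcr2 (TIM-3) at 8.96 to 10.1 CPM against 11.7 to 16.2 CPM, Cd274 (PD-L1) at 27.5 to 29.9 CPM against 30.7 to 51.8 CPM, and Pdcd1lg2 (PD-L2) at 0.604 to 0.845 CPM against 0.900 to 2.20 CPM. Tox and Lag3, named after their values were seen, had log2 fold changes of 0.97 ± 0.33 and 1.60 ± 0.55, and Lag3 overlapped between the groups. The median of this list was 0.63 without KO lung 1, and 0.45 when log2(FPKM + 1) values were fitted with limma. Of 15 B and plasma cell genes 14 were above 0, with a median of 0.35 and none wholly higher. That median was 0.17 without WT lung 1, 0.56 without WT lung 2 and 0.22 without KO lung 1. Mzb1 of plasma cells ranged from 5.24 to 41.8 CPM over the KO lungs.

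Antigen presentation and interferon genes lay in the same direction, with medians under those of the T and NK and checkpoint lists. All 14 genes of MHC class I presentation tested and all 10 of class II were above 0, with a median of 0.38 in both lists. Of these, 3 of class I and none of class II lay wholly higher, against 3.15% of all genes. Without KO lung 6 the class I median was 0.25. Nlrc5, the activator of class I genes, was at 26.9 to 28.7 CPM in WT lung and at 51.3, 29.8, 34.0, 51.5 and 44.0 CPM in KO lung (0.61 ± 0.18, edgeR adjusted p = 0.372). Ciita, the activator of class II genes, overlapped, at 0.29 ± 0.16. H2-Q7 and H2-Q4 were also wholly higher, but class I genes share reads with near copies and their counts are uncertain. Of 30 interferon response genes, 29 were above 0, with a median of 0.33 and 4 wholly higher, against 3.15% of all genes. Cxcl10, a chemokine induced by interferon, was at 1.45, 1.80 and 2.24 CPM in WT lung and at 13.6, 2.66, 2.86, 10.2 and 2.51 CPM in KO lung (1.79 ± 0.63, adjusted p = 0.462). KO lungs 1 and 6 had the highest levels, and Gbp3, a guanylate-binding protein, was likewise highest there at 51.0 and 58.1 CPM against 29.9 to 31.2 CPM in WT lung. Of 22 chemokine and cytokine genes tested 17 were above 0 and 5 below. Among them 1 lay wholly higher and 1 wholly lower, against 3.15% and 3.74% of all genes. Their median was 0.22, which was 0.10 without KO lung 1 and 0.54 without WT lung 2. In this list were Ccl4 at 0.514 to 0.640 CPM against 0.821 to 2.77 CPM and Ccl5 overlapping at 14.0 to 29.9 CPM against 18.1 to 101 CPM. Cxcl5 lay the other way, at 0.459 to 0.661 CPM in WT lung and 0.153 to 0.393 CPM in KO lung (-1.09 ± 0.37, edgeR adjusted p = 0.440).

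Macrophage genes were also mostly above 0. All 16 genes of interstitial macrophages and monocytes were above 0, with a median of 0.27, and 12 of 15 alveolar macrophage genes, with a median of 0.29. Mrc1, the mannose receptor, was at 73.8, 60.6 and 60.2 CPM in WT lung and at 106, 91.0, 94.6, 87.4 and 80.8 CPM in KO lung. Itgax, the integrin CD11c of alveolar macrophages, was at 59.5 to 62.3 CPM against 74.3 to 119 CPM. The groups of both genes did not overlap, and their log2 fold changes of 0.50 ± 0.11 and 0.62 ± 0.14 did not pass edgeR (adjusted p = 0.192 and 0.229) but passed DESeq2. Neutrophil genes lay mostly the other way, with 7 of 10 below 0, 3 above 0, a median of -0.38 and none wholly lower. S100a8 and S100a9 were at -0.75 ± 0.25 and -0.74 ± 0.22, and Lcn2, among those above 0, was at 0.84 ± 0.32. The neutrophil median was -0.04 without WT lung 2.

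Genes of dividing cells also lay mostly above 0, with no edgeR call. Of 25 mitosis genes 24 were above 0, with a median of 0.57, and of 25 DNA replication genes 22, with a median of 0.30. Birc5 was at 1.49 to 1.62 CPM in WT lung and at 4.95, 2.70, 2.82, 5.71 and 2.48 CPM in KO lung, Cenpf, a kinetochore protein, at 1.99 to 3.18 CPM against 3.26 to 5.09 CPM, and Plk1, a mitotic kinase, at 1.34 to 1.69 CPM against 1.53 to 5.38 CPM. Cdc6 and Cdt1, which load the replicative helicase, and Mcm2, a part of it, were wholly higher, with log2 fold changes of 0.85 ± 0.29, 0.72 ± 0.22 and 0.33 ± 0.12 (edgeR adjusted p = 0.440, 0.396 and 0.465).

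The KO lungs differed from each other in these groups of genes more than the WT lungs did. Over 10 lists (T and NK, checkpoint, B and plasma, MHC class I, MHC class II, interferon, interstitial macrophage, chemokine, mitosis and DNA replication), KO lungs 1 and 6 lay above the WT range in 10 of 10. KO lung 7 did so in 9 and KO lung 3 in 8. KO lung 2 lay above it in 2, within it in 7 and below it in 1, and was the lowest KO lung in all 10. All 10 lists have medians above 0, so these counts are no separate test. The neutrophil list is not among them. Its WT range was 4.08 to 4.66, with KO lung 1 within it at 4.40. KO lungs 2, 3, 6 and 7 were below that range, at 4.05, 4.06, 4.01 and 3.97. The alveolar macrophage list, also not among the 10, had another order. KO lung 2 was above the WT range of 5.27 to 5.52, at 5.81, and KO lung 7 was below it, at 5.21. Dendritic cell genes and those of mast cells, basophils and eosinophils were not among the 10 either, with 8 of 13 and 3 of 7 above 0 and medians of 0.34 and -0.33. The checkpoint list, for example, had a mean level of 1.71 to 1.76 in WT lung and of 2.77, 1.74, 2.08, 2.52 and 2.24 in KO lungs 1, 2, 3, 6 and 7, in log2(CPM + 1). KO lungs 1 and 6 share their codes with tumours, as does KO lung 3. KO lung 7, above the WT range in 9 lists, does not. The part of a tumour in the same animal was not tested.

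**Figure D4:**
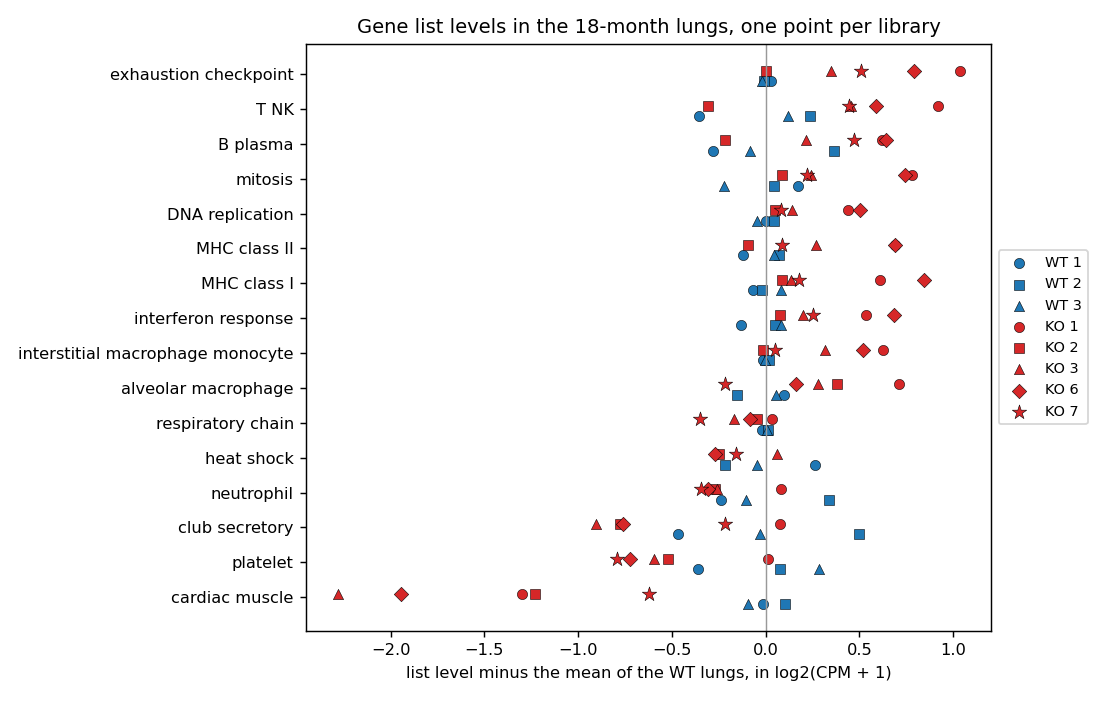
Points are the mean log2(CPM + 1) of each gene list in 1 lung minus the mean of the WT lungs (WT blue, KO red, a marker shape for each lung number). KO lungs 1 and 6 are right of all WT lungs in the 9 of the 10 counted lists that are drawn (the chemokine list is not), KO lung 2 is close to the WT lungs, and all KO lungs are left of the WT lungs in the cardiac list.

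Epithelial genes of the alveolus had medians close to 0. Alveolar type 2 genes had a median log2 fold change of 0.01, with 7 of 14 above 0, while their mean level in log2(CPM + 1) was 10.05 in WT lung and 10.00 in KO lung. Within the list Etv5, a factor of type 2 cells, was wholly higher at 0.20 ± 0.09, and Cxcl15, a lung chemokine, wholly lower at -0.45 ± 0.19. Alveolar type 1 genes had a median of -0.09, and 1 lung left out gave -0.17 (KO lung 2) to -0.04 (KO lung 7). The type 2 median was -0.07 without KO lung 1 and 0.11 without KO lung 7. Airway genes were lower without a call: 12 of 14 club cell genes were below 0 (median -0.31, or -0.15 without WT lung 2), among them Cldn10, a claudin, at -0.49 ± 0.14 and Aldh1a7 at -0.31 ± 0.11, both wholly lower. Of 14 genes of ciliated cells 13 were below 0 (median -0.15), with Tppp3 at -0.40 ± 0.14. The ciliated median was -0.26 without WT lung 1, -0.04 without WT lung 2, -0.06 without KO lung 6 and -0.28 without KO lung 7. Endothelial and fibroblast genes had medians of -0.07 and -0.03, and Pdgfra, a receptor of fibroblasts, was at 250 to 363 CPM in KO lung against 367 to 439 CPM in WT lung. With 1 lung left out the endothelial median ranged from -0.13 (WT lung 2) to 0.00 (KO lung 1) and the fibroblast median from -0.17 to 0.01 (the same lungs), so neither had a settled sign.

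In the elastic fibre and matrix list no gene was called by edgeR with all lungs in, and the largest fall was in elastin. Eln was at 190, 164 and 186 CPM in WT lung and at 90.8, 81.8, 108, 141 and 85.8 CPM in KO lung, with no overlap (-0.83 ± 0.17, edgeR adjusted p = 0.149). KO lung 6 was the nearest to the WT lungs, and without it Eln fell by 0.97 and was called (adjusted p = 0.0137). Fbn1, the fibrillin of elastic fibres, was wholly lower at -0.37 ± 0.16. The 16 genes of the elastic fibre and matrix list had a median of -0.06 (-0.13 without WT lung 2 and 0.03 without WT lung 1), and Eln had the lowest value among them. Of the 16 genes 6 were above 0 and 10 below, and 3 lay wholly lower, against 3.74% of all genes. Lox and Tnc, at -0.51 ± 0.17 and 0.61 ± 0.21, overlapped between the groups. Among genes tied to ageing, Igfbp3, a binding protein of insulin-like growth factors, was at 118 to 170 CPM in WT lung and 78.3 to 91.0 CPM in KO lung (-0.69 ± 0.12, adjusted p = 0.0854). Cdkn1a, the p21 inhibitor of the cell cycle, was at 208, 88.3 and 99.0 CPM against 43.3 to 70.5 CPM, with WT lung 1 far above the other WT lungs and a log2 fold change of -1.19 ± 0.27 (adjusted p = 0.217). Other genes of this list lay the other way. Mmp12 was wholly higher at 0.58 ± 0.19, and Cdkn2a overlapped at 0.94 ± 0.44 (edgeR adjusted p = 0.410 and 0.639). Of 14 ageing genes tested 9 were above 0 and 5 below, with a median of 0.15. The mean level of the list was 4.63 in WT lung and 4.60 in KO lung.

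All 8 platelet genes were below 0, with a median of -0.61 against 0.14 at 10 months. None was called by edgeR, and 2 lay wholly lower, against 3.74% of all genes. These were Pf4 at 14.6 to 16.9 CPM in WT lung and 7.98 to 14.0 CPM in KO lung, and Nrgn at 18.6 to 34.1 CPM against 10.7 to 17.3 CPM. Ppbp and Gp9, at -0.63 ± 0.25 and -0.76 ± 0.38, overlapped between the groups. The mean level of the platelet list in KO lung 1, 3.56, was within the WT range of 3.19 to 3.83. The other KO lungs were below it, at 2.75 to 3.03. Of 19 heat shock genes 17 were below 0, with a median of -0.21 against -0.55 at 10 months, and the median at 18 months was -0.06 without WT lung 1. Of 20 respiratory chain genes 19 were below 0, with a median of -0.10 (-0.04 without KO lung 7). Hsp90aa1 and Stip1, a chaperone and its partner, had log2 fold changes of -0.34 ± 0.13 and -0.29 ± 0.11. Of 22 retinoid genes tested Rarres1 alone was called, and 17 were below 0, with Rxrg, a retinoid X receptor, and Dhrs3, a retinal reductase, wholly lower at -1.02 ± 0.28 and -0.26 ± 0.10. The 15 tested genes around Rarres1 on chromosome 3 had a median of -0.12, which was -0.06 without WT lung 1 or without KO lung 6. Schip1 was at 33.8 to 38.0 CPM in WT lung and 20.6 to 30.2 CPM in KO lung (-0.52 ± 0.13, edgeR adjusted p = 0.274), and the noncoding Gm6634 was under 1 CPM in every lung.

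The effects at 18 months were set beside those at 10 months, where 233 of 15324 genes were called (1.52%), in other animals. All 12 genes called at 18 months had the same sign at 10 months and 11 were called there. Nr1d1 was the exception, at 1.10 ± 0.21 (edgeR adjusted p = 0.0813). The log2 fold changes of Dbp were 3.06 ± 0.25 at 18 months and 3.62 ± 0.14 at 10 months, and those of Arntl -2.56 ± 0.22 and -2.58 ± 0.16. Those of Npas2 were -2.36 ± 0.26 and -2.73 ± 0.14, and those of Rasl11a -1.50 ± 0.14 and -1.30 ± 0.16. No gene passed the test of the difference between the ages, with 453 at an unadjusted p under 0.05 in edgeR and 1 called by DESeq2, the predicted gene Gm7120. The difference was -0.56 ± 0.31 for Dbp and 0.02 ± 0.32 for Arntl. The cardiac list had a median of -0.69 at 10 months. Its genes named above had wide errors there, such as Myl7 at -0.71 ± 1.47 and Tnnt2 at -0.63 ± 1.37 (edgeR adjusted p = 0.854 and 0.859). The T and NK, checkpoint and mitosis lists had medians of 0.18, 0.23 and -0.20 at 10 months.

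At E19.5 none of 15307 genes was called by edgeR, with 144 at an unadjusted p under 0.05 and 2 called by DESeq2. Fewer genes lay under 0.05 than chance alone would give, so the absence of calls does not show the absence of an effect. Rarres1 itself, at -5.49 ± 0.59, was not called there (edgeR adjusted p = 0.122). WT embryo 3 held 31145 reads of Xist and 1 Y-linked read, against 5 to 22 and 4066 to 4939 in the other embryos. Dbp was at 0.11 ± 0.15 at E19.5 and Arntl at 0.21 ± 0.09. The difference between 18 months and E19.5 passed the test in 7 of 16055 genes (0.0436%), in a fit that uses the 18-month libraries again. These were Dbp (2.95), Arntl (-2.76), Rasl11a (-1.67), Npas2 (-2.56), Hlf (1.60), Tspan4 (1.22) and 5430416O09Rik (-1.49), each as a difference of log2 fold changes with an edgeR adjusted p between 0.00107 and 0.0262. The differences of Nr1d2 and Bhlhe41, at 1.16 and 1.81, did not pass (adjusted p = 0.0581 and 0.280). Without WT embryo 3 the difference passed in 5 genes: Arntl, Dbp, Rasl11a, Npas2 and Hlf.

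**Figure D5:**
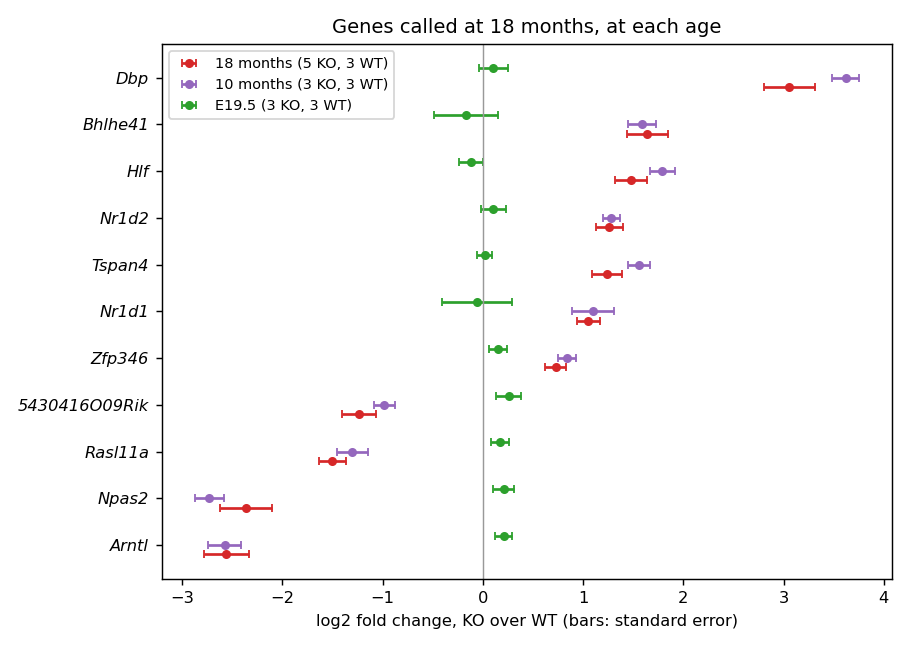
Points are log2 fold changes of KO over WT lung with their standard error at 18 months (red), 10 months (purple) and E19.5 (green) for the genes called at 18 months other than Rarres1. The 18- and 10-month values lie on the same side of 0 for all 11 genes, and the E19.5 values lie between -0.16 and 0.26.

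The genes that varied most among the 5 KO lungs, by the standard deviation of log2(CPM + 1), were largely those that set KO lungs 6 and 7 apart or have near copies. Hba-a1 had the largest standard deviation, 4.62, followed by Xist at 4.18, and Ddx3y, Eif2s3y and Kdm5d were at 2.61, 2.35 and 2.12. Cyp1a1 had 2.00. Eif3j1, Amd1 and Tgoln2 have near-identical copies whose reads the counting may have split: Eif3j1 was at 33.2 and 11.8 CPM in KO lungs 1 and 3 and under 0.1 CPM in the other KO lungs. Ccser2 is also in this set, and whether it has near copies was not tested. It was at 170, 74.2 and 77.5 CPM in WT lung and at 5.48, 162, 5.66, 58.9 and 146 CPM in KO lungs 1, 2, 3, 6 and 7, so that KO lungs 1 and 3 stood more than 10-fold under every WT lung.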

How the data were processed

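RNA from whole mouse lung was sequenced, and 23 libraries in 7 groups were used, 8 of them for the comparison at 18 months. Per the submitters' processing notes, reads were handled with Trimmomatic 0.36, STAR 2.5.2b and RSEM 1.3.0 on mm10. The deposited count table holds the authors' expected counts for 24411 genes (6.51% to 7.50% of the values of a library are not whole), which were rounded here. The deposited FPKM table holds the authors' length-scaled values and served for an alternative with limma 3.58.1 on log2(FPKM + 0.1) and log2(FPKM + 1). There were 0 value columns of no sample.

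Counts were scaled by TMM, filtered for low counts and tested with edgeR 4.0.16 (robust quasi-likelihood F-test, KO and WT at 18 months alone, no covariate) with Benjamini-Hochberg adjustment over all genes tested, in R 4.3.3. A gene is called at an adjusted p under 0.05. DESeq2 1.42.0 was an alternative. The difference of effects between ages was tested as an interaction. Floors for 0 counts used 3 counts. A list's level is the mean log2(CPM + 1) of its genes in 1 library. The scripts were tested on simulated data. Each library is a lung of its own by its labels, and a p-value reflects variation among these lungs.

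The members and lists were chosen with earlier results of these data known. Of 57 lists written, 29 are described, and 2 others are given by count and median alone. Tspan4 and Rasl11a were put in the clock outputs list because earlier results showed them. Named were all genes called by edgeR, the genes called by DESeq2 alone with the largest changes, genes with the smallest p of each described list, and the genes with the largest spread among KO lungs. Others are marked as chosen after their values were seen. Of 13 pairs of libraries compared within groups, chi-square over degrees of freedom was 6.72 to 125, so none was counted as a copy. Promoter windows and coordinates are from RefSeq on GRCm38.p6. Values of some single genes are not reported here.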

Additional observations from a re-analysis of the deposited data

Results flagged for a closer look

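Dixon's test at the 95% level was run 132 times on the 5 KO lungs, and in 12 cases 1 lung lay far from the other 4. Chance flags about 1 in 20 such groups, and which of the 12 it accounts for was not tested. That rate does not hold for genes named for their spread among these same lungs, among them Xist, Ddx3y, Eif2s3y, Kdm5d and Cyp1a1. Values are in CPM scaled by TMM. KO lung 7 had Xist at 844 CPM against 0.0707 to 0.538 CPM, and the Y-linked Ddx3y, Eif2s3y and Kdm5d at 0 CPM against 47.9 to 62.6, 27.9 to 51.0 and 21.7 to 27.4 CPM. The same lung had Per2 at 128 CPM against 54.5 to 66.5 CPM and Tbx20 at 1.49 CPM against 0.175 to 0.460 CPM. KO lung 6 had Cyp1a1 at 78.7 CPM against 1.91 to 4.46 CPM and Nfil3 at 3.19 CPM against 5.26 to 5.77 CPM. Its clock activator list had a mean level of 3.19 in log2(CPM + 1), against 3.64 to 3.82. KO lung 3 had Treml4 at 29.0 CPM against 11.5 to 13.7 CPM. KO lung 1 had Gm6634 at 0.283 CPM against 0.109 to 0.124 CPM, and its neutrophil list had a mean level of 4.40 against 3.97 to 4.06.

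The log2 fold change of KO over WT lung differed between 18 months and E19.5 in 7 genes by the interaction test. That test used the 18-month libraries again, and without WT embryo 3 it called 5 genes. The hour at which the lungs were taken is not given at either age. As differences of log2 fold changes with their edgeR adjusted p, the 7 genes were Dbp at 2.95 (0.00107), Arntl at -2.76 (0.00107), Rasl11a at -1.67 (0.00107), Npas2 at -2.56 (0.00357), Hlf at 1.60 (0.0105), 5430416O09Rik at -1.49 (0.0235) and Tspan4 at 1.22 (0.0262).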

How the results depend on the processing

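The count of 12 calls (7 higher, 5 lower) became 154 with DESeq2 (62 higher, 92 lower) and 26 with all 23 libraries in 1 fit (13 higher, 13 lower). Without a filter on low counts 17 were called, 8 of them lower. Leaving out 1 lung gave 3 to 26 calls, 1 to 10 higher and 2 to 16 lower. Leaving out KO lungs 6 and 7 together gave 42 (14 higher, 28 lower). With the cardiac level as a covariate 0 were called (0 higher, 0 lower), and Hrc, Kcnj3 and Smpx turned to 0.12, 0.45 and 0.61; that level differs between the groups. The replicate numbers did not pair the lungs (correlations of -0.169, -0.221 and -0.145), and the fit with the replicate block called 8 genes, 2 higher and 6 lower, of which Dbp, Arntl, Npas2 and Rasl11a were among the 12. The difference from 10 months was called in 1 gene by DESeq2 and in 0 with any library left out. The difference from E19.5 was called in 31 by DESeq2 and in 4 to 10 with a library left out, 4 being without KO lung 2 of E19.5. The cause of these moves was not tested. Over 29 list medians 24 of 580 alternative values moved beyond the spread between replicates. The sign changed in 15 of the 580, over 9 lists: 10 in the alveolar, endothelial, fibroblast and elastic fibre lists, whose medians are close to 0, and 5 with the cardiac covariate, where the MHC class II and ciliated medians were -0.08 and 0.36. Spreads among KO lungs without 1 lung were added after seeing the data. With 3 WT lungs, differences that missed the threshold are not shown to be absent.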
